A study of Sus scrofa with 27 samples.

Results

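Gene expression in pig lungs after 12h of Gold Standard (GS) ex vivo lung perfusion (EVLP) was compared with the same lungs before perfusion. The comparison takes 10 of the 27 RNA-seq libraries of the series: the biopsies at 0h and at 12h of the 5 GS pigs, numbered 9, 17, 44, 55 and 77, paired by pig. All genes with enough counts were tested, 18594 of the 31908 in the table. The lungs came from Large White pigs used as non-heart-beating donors, and each underwent a cold ischemia before EVLP by the Toronto protocol with acellular Steen solution that held methylprednisolone, cefuroxime and heparin. In GS a portion of the solution was exchanged for fresh solution at regular intervals, whereas in the Pediatric Dialysis (PD) group, 4 other pigs with 12 libraries, a dialyzer on the circuit took the place of these exchanges. The circuit, with its leukocyte-depletion filter, the drugs and the cold ischemia were common to GS and PD, and the 0h biopsy was taken after the cold ischemia, so no library shows an undisturbed lung. No library is of a lung kept for 12h without perfusion, and the perfusion and the elapsed time cannot be told apart. Every value below is from whole biopsies, in which a lower level can mean fewer cells of a type or less RNA per cell, and these cannot be told apart.

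EVLP keeps a donor lung ventilated and perfused at near body temperature outside the body, where it has no blood, no nerve supply, no liver or kidney and no incoming leukocytes. The lung holds gas-exchanging alveolar type 1 cells, surfactant-making type 2 cells, ciliated and secretory airway cells, a very large capillary endothelium, a supporting mesenchyme and resident and marginated leukocytes. Endothelium and airway cells of this organ also carry out much metabolism, inactivating prostaglandins and amines and oxidizing foreign compounds.

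The 10 libraries held 26871741 to 67522703 counts, and 21079 to 24084 genes had a count. The libraries of pigs 9 and 17 were shallower than those of pigs 44, 55 and 77 at both times, so results that differ between these pigs are given for each. Total counts, the share of counts from the mitochondrial genome (6.10% ± 2.33 at 0h and 6.32% ± 2.54 at 12h, SD, n = 5) and the share of the 100 most abundant genes differed by less than the spread between pigs (exact paired sign-flip permutation tests, two-sided, p = 0.25, 0.625 and 0.5). With 5 pairs this test cannot give a p below 0.0625. The share of red cell genes, at most 0.00203% of the counts, was lower at 12h in 5 of 5 pigs (p = 0.0625 in the same exact test). Lung markers were abundant in every library. SFTPC, the surfactant protein C of type 2 cells, ranged from 1924 to 6628 CPM (counts scaled to library size with TMM factors), AGER of type 1 cells from 605 to 1131 CPM and PECAM1 of endothelium from 541 to 1067 CPM over both times.

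At 12h, 1611 of the 18594 genes had fallen and 1300 had risen, at an adjusted p below 0.05 in edgeR's quasi-likelihood test and a fold change of at least 2. Thus 8.66% of the genes tested fell and 6.99% rose, and the counts of single gene groups below are set beside these shares. The gene lists were chosen with earlier results of these data known. A list share above 8.66% or 6.99% is therefore a description and gives no independent support. Of the genes that fell, 1374 were lower at 12h in all 5 pigs, and of those that rose 983 were higher in all 5. The highest 12h library lay below the lowest 0h library for 1175 genes (6.32% of those tested), and the lowest 12h library lay above the highest 0h library for 1136 (6.11%). The median log2 fold change over all genes was −0.08. Without the fold change threshold 3868 genes were lower (20.8%) and 3268 higher (17.6%). The excess of falling over rising genes was not stable. DESeq2 size factors in place of TMM factors gave 1412 falling and 1466 rising genes, and leaving out the pig as a block gave 879 and 1017. Without pig 9 the counts were 1695 and 1838, in pigs 44, 55 and 77 alone 1642 and 1943, and in pigs 9 and 17 alone 619 and 705.

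Of the 20 protein-coding genes with a symbol that fell most, at a mean of at least 1 CPM and in all 5 pigs, several belong to leukocytes, and others are receptors, airway genes or outputs of the circadian clock. B3GALT2 (ENSSSCG00000010800, chromosome 10, 613608 to 624131 on Sscrofa11.1), a galactosyltransferase of glycan synthesis, measured 31.6, 37.5, 21.1, 29.0 and 17.2 CPM at 0h and 2.34, 1.41, 2.29, 3.17 and 4.72 CPM at 12h, in the order of pigs 9, 17, 44, 55 and 77, which is kept throughout. Where all 10 values of a gene are given and nothing is said of overlap, every 12h value lay beyond every 0h value. Its log2 fold change of −3.29 (SE 0.32, adjusted p = 5.59e-05) was the lowest of these 20. The gene overlaps CDC73 on the opposite strand, whose log2 fold change was −0.10 (adjusted p = 0.491), and the strand setting of the counting is not given in the sources used here.

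CX3CR1 (ENSSSCG00000024024, chromosome 13, 23944369 to 23957486), the fractalkine receptor of monocytes and cytotoxic lymphocytes, measured 4.26, 6.32, 15.9, 9.999 and 7.62 CPM at 0h and 2.59, 0.210, 0.497, 0.672 and 1.33 CPM at 12h. Pig 9 kept the most of it, and the log2 fold change was −3.26 (SE 0.56, adjusted p = 0.000955). CCR4 (ENSSSCG00000034660, chromosome 13, 18860730 to 18865985), a chemokine receptor of T cells, measured 8.07, 6.01, 4.75, 4.57 and 7.07 CPM at 0h and 2.21, 0.390, 0.580, 0.840 and 0.787 CPM at 12h (−2.79, SE 0.31, adjusted p = 8.44e-05). THEMIS (ENSSSCG00000024392, chromosome 1, 35333454 to 35519870), a component of T-cell receptor signaling, measured 4.09, 3.86, 3.39, 2.57 and 4.36 CPM at 0h and 0.436, 0.420, 0.398, 0.399 and 0.959 CPM at 12h. Every lung had at most 1 CPM of it left, and the log2 fold change was −2.89 (SE 0.32, adjusted p = 8.67e-05).

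A pair of nucleotide receptors fell in all 5 pigs. P2RY13, an ADP receptor, measured 12.1, 27.3, 8.24, 24.0 and 12.4 CPM at 0h and 1.65, 1.35, 1.51, 4.64 and 3.75 CPM at 12h (log2 fold change −2.76, SE 0.35, adjusted p = 0.000176). It lies beside P2RY12, the platelet and microglial ADP receptor, and overlaps it on the same strand, and P2RY12 also fell (−2.28, adjusted p = 0.0008), so reads of the pair may be shared. P2RY6, a UDP receptor, measured 3.10, 4.86, 3.83, 7.16 and 2.66 CPM at 0h and 0.249, 0.510, 0.746, 1.18 and 0.616 CPM at 12h (log2 fold change −2.69, SE 0.35, adjusted p = 0.000196). Other leukocyte genes among the 20 were PADI4, the histone-citrullinating enzyme of neutrophils (−2.55, SE 0.40), and GAPT, an adaptor of B and myeloid cells (−2.39, SE 0.32).

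The remaining members of the 20 have diverse roles. GALR1, the galanin receptor, measured 13.3, 12.7, 2.01, 4.42 and 1.28 CPM at 0h and 1.40, 1.41, 0.431, 0.504 and 1.11 CPM at 12h, where the times overlapped only because pig 77 began low (log2 fold change −2.45, SE 0.39, adjusted p = 0.000623). HTR2C, a serotonin receptor, fell by a log2 fold change of −2.50 (SE 0.48). HSPA1L, a member of the HSP70 chaperone family, measured 18.6, 16.4, 12.2, 35.1 and 25.5 CPM at 0h and 4.15, 3.00, 2.58, 2.12 and 5.07 CPM at 12h and fell in every pig (−2.59, SE 0.41, adjusted p = 0.000572). It is a close copy of other HSP70 genes and overlaps HSP70.2, whose log2 fold change was −2.42 (adjusted p = 0.105) with no call. SOSTDC1, a secreted antagonist of BMP and Wnt ligands, and FPGT, an enzyme of fucose salvage, had log2 fold changes of −2.98 (SE 0.71) and −2.57 (SE 0.34). SOSTDC1 fell further in pigs 9 and 17, with a mean log2 ratio of −5.02, than in pigs 44, 55 and 77 (−1.46). ZNF891 had a log2 fold change of −2.90 (SE 0.60), SMCO3 −2.49 (SE 0.41) and KCTD21 −2.48 (SE 0.42). ZNF891 was not alike in the pigs either: it went from 9.06 to 7.98 CPM in pig 9 and from 7.52 to 0.331 CPM in pig 44.

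The plot of CPM by hour shows 12 of the genes described, with every pig as a line.

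**Figure D1:**
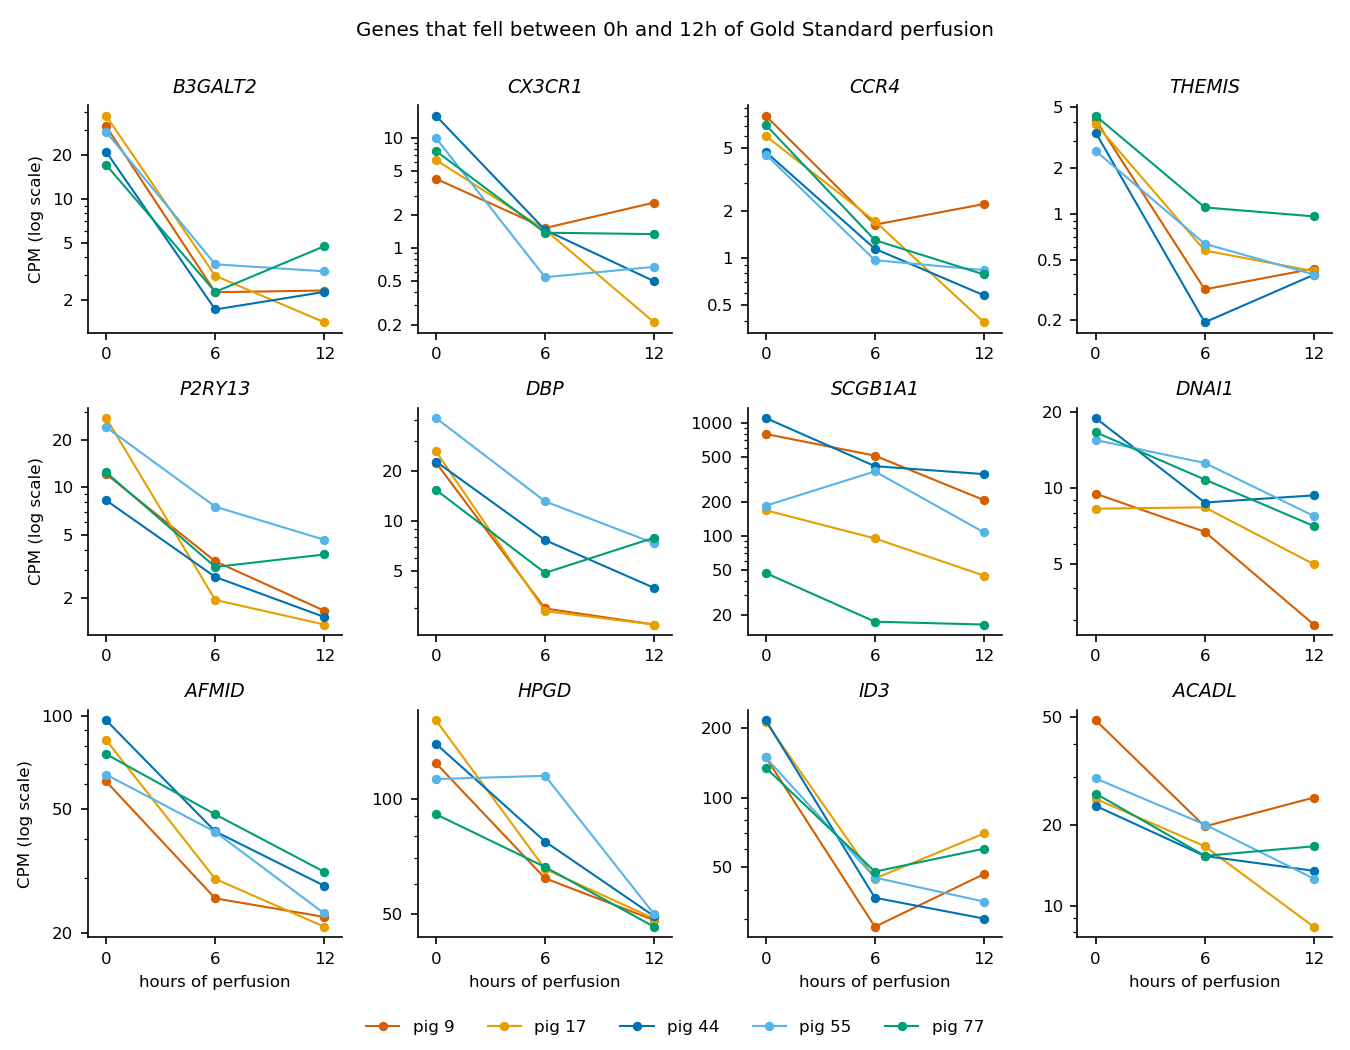
CPM on a log axis at 0h, 6h and 12h of GS perfusion for 12 genes that fell, 1 line per pig (n = 5). B3GALT2 measured 17.2 to 37.5 CPM at 0h and 1.73 to 3.55 CPM at 6h, and SCGB1A1 differed more between pigs than between times.

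Some lymphocyte and mast-cell genes fell and 0 rose. Of 21 T-cell genes tested 4 fell and 0 rose (19.0% fell against 8.66% of all genes), of 15 NK-cell genes 5 fell (33.3%), of 14 B- and plasma-cell genes 5 fell (35.7%) and of 6 mast-cell and basophil genes 3 fell. The median log2 fold changes were −0.64, −0.75, −0.43 and −1.0, against −0.08 over all genes. The summed level of the T-cell list ranged from 529 to 909.9 CPM at 0h and from 303 to 680.2 CPM at 12h, and that of the NK-cell list from 239 to 427 CPM at 0h and from 127 to 331 CPM at 12h, so the ranges overlapped between the times. The B-cell list ranged from 420.0 to 597 CPM at 0h and from 207 to 648 CPM at 12h and the mast-cell list from 86.2 to 165 CPM at 0h and from 56.7 to 167 CPM at 12h, again with overlap. The mean was lower at 12h for 17 of the T-cell, 15 of the NK-cell, 8 of the B-cell and 6 of the mast-cell genes. Every gene tested in these 4 lists had a count in each of the 10 libraries.

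In T cells CD2, an adhesion receptor, measured 84.3, 72.4, 92.2, 65.0 and 109 CPM at 0h and 51.8, 27.9, 27.8, 40.0 and 38.2 CPM at 12h. It was lower in each pig, and the log2 fold change was −1.20 (SE 0.16, adjusted p = 0.000233). ZAP70, the kinase of the T-cell receptor, and CD8B, a chain of the CD8 coreceptor, fell with log2 fold changes of −1.18 (SE 0.20) and −1.03 (SE 0.22). CD3E, a core chain of the receptor complex, was lower by less than the threshold, at −0.60 (SE 0.17, adjusted p = 0.0145), and its times overlapped. In NK cells EOMES, a transcription factor of cytotoxic lymphocytes, measured 9.54, 9.47, 16.1, 14.7 and 9.19 CPM at 0h and 3.87, 2.85, 6.97, 5.55 and 5.32 CPM at 12h (log2 fold change −1.30, SE 0.20, adjusted p = 0.000528). FASLG and GNLY, effectors of killing, fell with log2 fold changes of −1.09 (SE 0.19) and −1.15 (SE 0.23), as did TBX21 (−1.01, SE 0.23), the regulator T-bet. NKG7, a granule membrane protein of the same cells, had a log2 fold change of only −0.10 (adjusted p = 0.587) and was higher in the deeper pigs 44, 55 and 77 fitted alone (0.14).

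The 5 B-cell genes called were lower in all 5 pigs. MS4A1, which encodes CD20, measured 15.5, 14.2, 23.8, 11.96 and 12.8 CPM at 0h and 6.98, 2.64, 3.56, 6.49 and 6.18 CPM at 12h (log2 fold change −1.62, SE 0.26, adjusted p = 0.000635). BANK1, a B-cell scaffold, measured 85.8, 73.8, 94.4, 69.7 and 47.3 CPM at 0h and 26.6, 11.4, 33.9, 28.0 and 31.7 CPM at 12h (−1.63, SE 0.34, adjusted p = 0.00306). CD22, a B-cell coreceptor, FCRLA and PAX5, the lineage's defining transcription factor, fell with log2 fold changes of −1.09 (SE 0.15), −1.21 (SE 0.24) and −1.39 (SE 0.31). CD79A, a chain of the B-cell receptor, was not called (−0.57, adjusted p = 0.0153). Among mast-cell genes MS4A2, a chain of the high-affinity IgE receptor, measured 12.8, 21.4, 24.0, 30.6 and 27.3 CPM at 0h and 9.41, 9.79, 7.54, 13.5 and 14.4 CPM at 12h, with overlap (log2 fold change −1.05, SE 0.20, adjusted p = 0.00192), and HDC, which makes histamine, fell with a log2 fold change of −1.95 (SE 0.49).

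Calls in the myeloid lists differed by cell type. In edgeR's test 0 of 20 macrophage genes and 0 of 8 platelet genes were called, 3 and 0 had an unadjusted p below 0.05, and DESeq2 also called 0 of each. The macrophage gene MARCO, a scavenger receptor, had a log2 fold change of −0.09 (adjusted p = 0.845), and its sign turned without pig 44 (0.02) and when only the 0h and 12h libraries were fitted (0.02). The resident macrophage genes SIGLEC1 and CD163 had log2 fold changes of −0.90 (adjusted p = 0.0266) and 0.53 (adjusted p = 0.0687). Of 15 neutrophil and monocyte genes 2 fell (13.3% against 8.66% of all genes) and 1 rose (6.67%). PADI4 was among those that fell, and CD14, the lipopolysaccharide coreceptor, measured 28.6, 22.9, 51.4, 18.4 and 28.1 CPM at 0h and 101.4, 112, 76.6, 80.8 and 58.0 CPM at 12h and rose (1.596, SE 0.22, adjusted p = 0.000292). Without pig 17 or pig 44 a single gene of this list fell. Of 17 genes of dendritic cells and MHC class II 2 fell (11.8%) and 0 rose. They were ZBTB46 and CD1E, markers of conventional dendritic cells, with log2 fold changes of −1.30 (SE 0.26) and −1.77 (SE 0.43). Over the 17 genes of that list the median log2 ratio was −0.70, −0.27, 0.25, 0.13 and 0.29, below 0 in pigs 9 and 17 and above 0 in the other 3. Among red cell genes HBB, the beta-globin gene, measured at most 9.81 CPM at 0h and fell in every pig (−1.5, adjusted p = 0.0189).

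The pigs differed in the size of these falls. The median log2 ratio of the NK list was −1.07, −1.11, −0.77, −0.27 and −0.30, that of the T-cell list −0.82, −0.96, −0.61, −0.19 and −0.45 and that of the B-cell list −0.51, −0.76, −0.95, 0.38 and −0.45. Pigs 9 and 17 thus lay lowest for NK and T cells, and pig 55 stood apart with a positive median for B cells. The same pig had the highest medians for neutrophil and monocyte genes (0.71) and macrophage genes (0.38), while pig 44 had the lowest for neutrophil and monocyte genes (−0.81). The number of calls depended on single pigs, with 2 NK genes called without pig 17, 3 without pig 9 and 3 with DESeq2, 2 T-cell genes without pig 44 and 1 dendritic-cell gene without pig 44.

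The lists of airway epithelium held falls and no rises. All 26 ciliated-cell genes tested had a lower mean at 12h, 4 were called (15.4%), and the median log2 fold change was −0.65 at 12h and −0.18 at 6h. The median was negative in each pig (−0.56, −0.40, −0.50, −0.80 and −0.91). The summed level of the list ranged from 604 to 743 CPM at 0h and from 389.5 to 530.3 CPM at 12h, without overlap. DNAI1, an intermediate chain of the ciliary dynein arm, measured 9.51, 8.28, 19.0, 15.5 and 16.7 CPM at 0h and 2.87, 4.98, 9.36, 7.75 and 7.07 CPM at 12h, with overlap (log2 fold change −1.14, SE 0.19, adjusted p = 0.000836). DNAH5, a heavy chain of the outer arm, TEKT1, a tektin of the axoneme, and MCIDAS, which starts the multiciliated program, fell with log2 fold changes of −1.005 (SE 0.29), −1.06 (SE 0.24) and −1.56 (SE 0.37). GMNC, the geminin relative upstream of MCIDAS, was among the 20 genes that fell furthest and measured 3.41, 4.58, 3.74, 3.53 and 2.84 CPM at 0h and 1.78, 0.540, 0.414, 0.189 and 0.411 CPM at 12h (−2.65, SE 0.55, adjusted p = 0.00276). FOXJ1, the later regulator of motile cilia, was lower by less than the threshold (−0.62, SE 0.21, adjusted p = 0.0371). Without pig 77, and with DESeq2, 2 of the ciliated genes were called. With pigs 9 and 17 alone 0 were, and with pigs 44, 55 and 77 alone 4 were.

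Of 18 genes of secretory and basal airway cells 4 fell (22.2%) and 0 rose, and 13 had a lower mean. By pig its median log2 ratio was −0.84, 0.19, −0.69, −0.53 and −0.45, so pig 17 stood above 0. The fitted median was −0.54, and −0.32 without pig 9. The summed level ranged from 783 to 2211 CPM at 0h and from 646 to 1546 CPM at 12h, with overlap. SCGB1A1 (ENSSSCG00000013060, chromosome 2, 9297283 to 9302165), the secretoglobin of club cells, measured 796, 168, 1101, 185 and 47.0 CPM at 0h and 207, 44.6, 352, 107 and 16.5 CPM at 12h. The lungs started from very different levels, so the times overlapped, but each lung fell, and the log2 fold change was −1.61 (SE 0.28, adjusted p = 0.00106). BPIFA1, a secreted defence protein of upper airways, measured 14.6, 10.3, 30.6, 3.01 and 3.44 CPM at 0h and 1.75, 3.15, 1.91, 0.735 and 0.274 CPM at 12h, with overlap between pigs but a fall in each (−3.05, SE 0.69, adjusted p = 0.00434). TP63, the master regulator of basal cells, measured 13.8, 5.42, 11.4, 8.14 and 7.81 CPM at 0h and 4.27, 3.09, 2.05, 2.27 and 3.80 CPM at 12h (−1.59, SE 0.27, adjusted p = 0.000943), and the basal keratin KRT15 fell with a log2 fold change of −1.75 (SE 0.50). These 4 genes had smaller changes at 6h, at −0.64 for SCGB1A1, −0.87 for BPIFA1, −1.13 for TP63 and −0.79 for KRT15. The amount of airway in a biopsy was not recorded in the files, and its part in these differences was not tested.

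In alveolar epithelium few genes were called. Of 22 genes of type 2 cells and surfactant, HHIP, a Hedgehog-binding protein, was the sole member called, with a log2 fold change of −1.19 (SE 0.32, adjusted p = 0.0117). It fell from 229 and 294 to 49.6 and 69.3 CPM in pigs 9 and 17 and by far less in pigs 44, 55 and 77, with mean log2 ratios of −2.14 and −0.41. HHIP was not called without pig 9 (−0.87) or without pig 17 (−0.88). SFTPC and SFTPB, surfactant proteins, had log2 fold changes of 0.14 (adjusted p = 0.544) and 0.35 (adjusted p = 0.07). ETV5, a transcription factor that maintains type 2 cells, was lower in all 5 pigs below the fold change threshold (−0.66, SE 0.14, adjusted p = 0.00327). Of 20 type 1 genes AKAP5, a kinase anchor, fell (−1.53, SE 0.22, adjusted p = 0.000355) and PDPN, SCEL and FSTL3 rose. PDPN, the type 1 surface protein podoplanin, measured 167, 133, 106, 126 and 116 CPM at 0h and 308, 413, 288, 440.5 and 277 CPM at 12h (1.42, SE 0.17, adjusted p = 0.000131). AGER, the best known type 1 marker, had a log2 fold change of 0.10 (adjusted p = 0.62).

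Endothelial genes changed in both directions. Of the 30 general endothelial genes edgeR called 0, although 4 were lower and 2 higher at an adjusted p below 0.05 and 8 had an unadjusted p below 0.05. DESeq2 called 0 of them. In edgeR 1 fell without pig 9, without pig 77 or with upper quartile factors, and in pigs 44, 55 and 77 alone 1 fell and 3 rose. KDR, the main VEGF receptor, measured 292, 406, 327, 437 and 253 CPM at 0h and 203, 156, 143, 182 and 194 CPM at 12h (−0.96, SE 0.18, adjusted p = 0.00182). TEK, the angiopoietin receptor, was lower in all 5 pigs (−0.62, adjusted p = 0.00221), while PECAM1 (0.44, adjusted p = 0.0102) and S1PR1, a receptor of sphingosine phosphate (0.71, adjusted p = 0.00315), were higher in all 5. CDH5, the adherens junction cadherin of endothelium, had a log2 fold change of 0.15 (adjusted p = 0.402). Of 27 capillary genes 5 fell (18.5%) and 2 rose. HPGD, which inactivates prostaglandins, measured 124, 159.9, 139, 112 and 91.0 CPM at 0h and 48.2, 48.7, 49.4, 50 and 46.4 CPM at 12h. All 12h values fell in a narrow band below every 0h value, with a log2 fold change of −1.35 (SE 0.17, adjusted p = 0.000148). APLN and APLNR, the apelin ligand and its receptor, fell with log2 fold changes of −1.75 (SE 0.47) and −1.84 (SE 0.50), as did ADRB1, a beta-adrenergic receptor (−1.59, SE 0.34), and SOSTDC1. EDN1, which encodes endothelin, and LPL, lipoprotein lipase, rose by 1.31 (SE 0.39) and 1.95 (SE 0.67). APLN went the other way in pig 77 (a log2 ratio of 0.83). Of the 2 capillary rises a single one was called without pig 9, 17, 55 or 77, and 0 with no filter on low counts or with glmTreat, edgeR's test against a fold change of 1.5. Of 22 genes of larger and lymphatic vessels 4 fell (18.2%) and 2 rose (9.09%). GJA5, the arterial connexin, measured 76.7, 119, 96.4, 69.5 and 119.8 CPM at 0h and 20.2, 25.3, 37.6, 62.6 and 64.9 CPM at 12h (−1.37, SE 0.37, adjusted p = 0.0115). PROX1, which specifies lymphatic endothelium, fell with a log2 fold change of −1.18 (SE 0.29), whereas GJA4, another arterial connexin, and ACKR1 of venules rose by 1.26 (SE 0.26) and 1.04 (SE 0.29). Without pig 9 the list of larger vessels had 2 falls in place of 4, with 0 without the pig as a block or with glmTreat and 1 in the fit of all 27 libraries, and without pig 17 or pig 55 it had 1 rise in place of 2.

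Of 17 genes known to respond to blood flow in endothelium 6 rose (35.3% against 6.99%) and 0 fell, with a median log2 fold change of 0.50. ADM, which encodes the vasodilator adrenomedullin, measured 26.9, 21.6, 11.8, 44.4 and 26.9 CPM at 0h and 74.7, 147, 123, 129 and 206 CPM at 12h (2.40, SE 0.25, adjusted p = 7.14e-05), and HEG1, a junctional receptor of endothelium, 109.6, 117, 132, 98.9 and 112 CPM at 0h and 353, 416, 274, 340.2 and 236 CPM at 12h (1.49, SE 0.17, adjusted p = 9.09e-05). KLF10 and TIPARP, a transcription factor and a target of the aryl hydrocarbon receptor, rose by 2.22 (SE 0.34) and 1.71 (SE 0.23), with EDN1 and CYP1B1. The best known flow-induced factors were not called. KLF2 had a log2 fold change of −0.08 (adjusted p = 0.738), which turned to 0.02 without pig 9, 0.01 without pig 44 and 0.09 in pigs 9 and 17 alone. KLF4 was at 0.44 (adjusted p = 0.437), but was called as rising without pig 9 (1.10) and was at −0.85 in pigs 9 and 17 alone. NOS3, the endothelial nitric oxide synthase, was at 0.50 (adjusted p = 0.256). Over the pigs the list had median log2 ratios of 0.11, 0.47, 1.03, 1.37 and 0.70. Without pig 9, 9 of its genes rose and the fitted median was 1.10 in place of 0.50. The fitted median was 1.17 in pigs 44, 55 and 77 alone and 0.15 in pigs 9 and 17 alone.

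Mesenchymal lists differed between the pigs. Of 30 fibroblast genes 3 fell, a share close to that of all genes. They were WNT2, an alveolar fibroblast ligand (−1.26, SE 0.22, adjusted p = 0.00114), MEOX2, a homeobox factor (−1.21, SE 0.23, adjusted p = 0.00193), and FGFR4, a growth factor receptor (−1.19, SE 0.26, adjusted p = 0.00342). WNT2 measured 12.5, 32.5, 16.6, 22.9 and 19.8 CPM at 0h and 2.27, 10.9, 9.86, 11.9 and 11.28 CPM at 12h. TCF21, a transcription factor of lung fibroblasts, was lower in all 5 pigs just under the threshold (−0.90, SE 0.15, adjusted p = 0.000757). The median log2 ratio of the list was −0.74, −0.25, −0.08, −0.03 and −0.08, and without pig 9 a single gene was called. Of 18 contractile genes of smooth muscle edgeR and DESeq2 called 0, and 5 had an unadjusted p below 0.05. In pigs 9 and 17 alone 4 of them fell, and in pigs 44, 55 and 77 alone 1 rose. Their median was −0.65, −0.65, −0.19, −0.06 and 0.23, and ACTA2, smooth muscle actin, fell from 568 and 601 to 198 and 234 CPM in pigs 9 and 17 but went from 608 to 639 CPM in pig 77 (log2 fold change −0.69, SE 0.33, adjusted p = 0.111 over 5 pigs). Of 25 collagen and elastic fibre genes edgeR and DESeq2 called 0, 2 had an unadjusted p below 0.05, and their median was −0.58 in pig 9 and between 0.01 and 0.26 in the other 4. Of 17 pericyte genes 1 fell and 1 rose (5.88% each, less than of all genes). The lower share of falls was not stable: 2 of the 17 fell without pig 44, 55 or 77. The same number fell without the pig as a block and with upper quartile factors. KCNJ8, the pore of the pericyte ATP-sensitive potassium current, measured 20.3, 25, 27.9, 47.9 and 33.1 CPM at 0h and 14.7, 9.70, 7.84, 9.26 and 21.7 CPM at 12h, with overlap, and fell (−1.32, SE 0.26, adjusted p = 0.00217), and AGTR1, the angiotensin receptor, rose (1.34, SE 0.24, adjusted p = 0.00132).

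The plot of list medians sets the pigs beside each other for the cell type lists and the other lists.

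**Figure D2:**
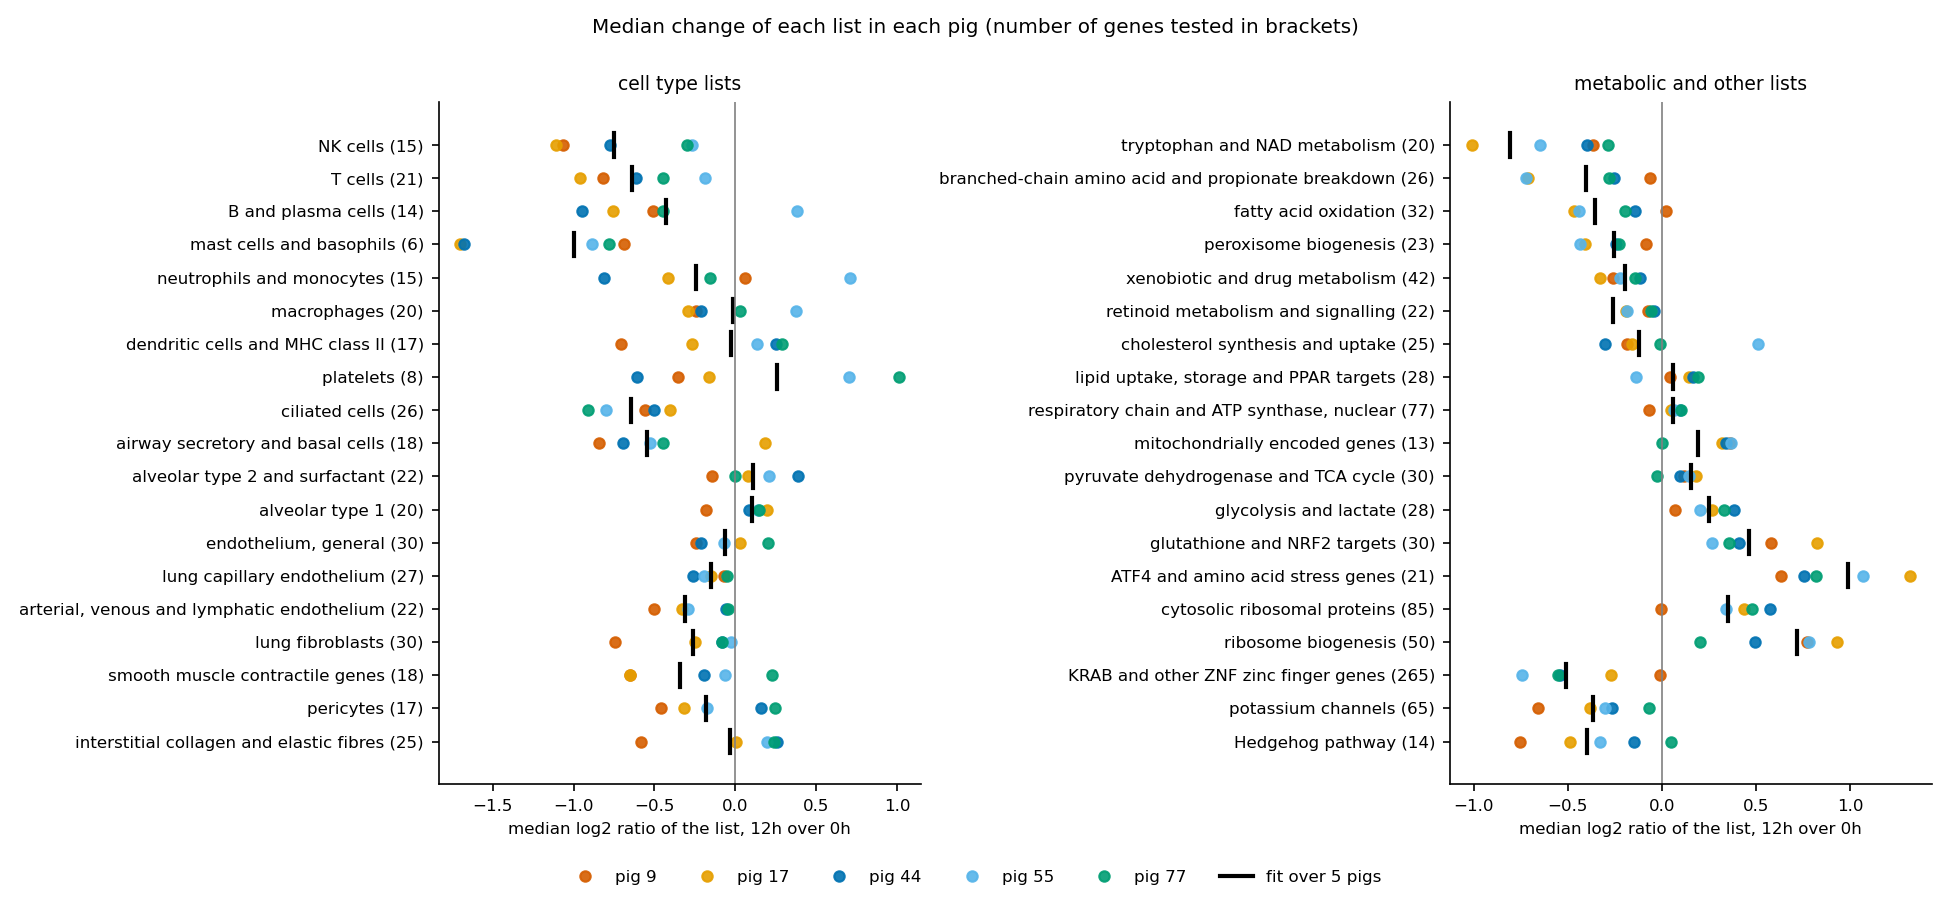
Median log2 ratio, 12h over 0h, of the genes of each list in each of the 5 GS pigs (points) and the median of the fitted log2 fold changes (black bars), with the number of genes tested in brackets. Ciliated-cell, NK-cell and T-cell medians are negative in all 5 pigs, whereas pig 9 lies lowest for fibroblast and collagen genes.

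Receptors and channels followed. Of 44 adrenergic, prostaglandin and other vasoactive receptors 8 fell (18.2%) and 3 rose. ADRA1A, an alpha-adrenergic receptor, measured 35.1, 62.1, 21.9, 24.6 and 20.8 CPM at 0h and 12.9, 12.7, 6.34, 7.63 and 10.2 CPM at 12h (−1.67, SE 0.23, adjusted p = 0.000292). ADRB1 and AGTR1 are given above, and ADRA2B, ADRA1D, PTGER3 and PTGFR, receptors of catecholamines and prostaglandins, fell with log2 fold changes from −1.32 to −1.02. ADRA1B, a further alpha-adrenergic receptor, went the other way (1.36, SE 0.30). AGTR1 and F2RL1, a protease-activated receptor, rose. The excess of falls was not stable: 5 fell and 6 rose without pig 17, 7 and 5 without pig 9, and 4 and 3 without pig 44 or without pig 55. Without the pig as a block 3 fell and 2 rose, in the fit of all 27 libraries 2 and 3, and with length and GC trends removed 4 and 4. Of 65 potassium channel genes 8 fell (12.3%) and 4 rose, with KCNE3, an accessory subunit of epithelium (−1.56, SE 0.26, adjusted p = 0.000738), and KCNQ3 (−2.65, SE 0.54, adjusted p = 0.00244) among the falls. Without pig 9 the excess of falls turned, with 5 falls and 7 rises, and the falls were 5 without pig 44 and 4 without pig 55, with 4 rises each. Of 48 genes of the BMP and TGF-beta pathway 5 fell (10.4%) and 2 rose. ID3, an inhibitor of differentiation induced by BMP, measured 149, 212, 216, 149 and 135 CPM at 0h and 46.7, 70.0, 30.0, 35.5 and 60.2 CPM at 12h, and its log2 fold change was −1.86 (SE 0.21, adjusted p = 0.000104). BMP3 and SMAD2, a secreted family member and a signal transducer of TGF-beta, fell with log2 fold changes of −1.16 (SE 0.19) and −1.01 (SE 0.20), and BMP2, a ligand, rose (2.19, SE 0.24). In the Wnt list WNT2, FZD2 (−1.09, SE 0.28) and PRICKLE1 (−1.26, SE 0.36) fell and FZD4, a Frizzled receptor, rose (1.59, SE 0.22), 3 and 1 of 57 genes (5.26% fell, less than of all genes). Without pig 77 these falls were 8 in the BMP list and 6 in the Wnt list. Without pig 9 the BMP rises were 4 and the Wnt falls 1, and without pig 44 the Wnt rises were 2.

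Among metabolic programs tryptophan and NAD metabolism had the largest share of falling genes of the metabolic lists, 7 of 20 against 8.66% of all genes, and 2 rose. AFMID, the formamidase that follows IDO in the kynurenine pathway, measured 61.3, 83.3, 96.5, 64.5 and 75.1 CPM at 0h and 22.5, 20.9, 28.3, 23.1 and 31.4 CPM at 12h (−1.6, SE 0.15, adjusted p = 4.48e-05). KMO, the next hydroxylase of the pathway, measured 37.5, 70.4, 52.5, 44.4 and 38.3 CPM at 0h and 21.4, 33.5, 16.0, 21.8 and 17.2 CPM at 12h (−1.16, SE 0.17, adjusted p = 0.000469), and CD38, the main NAD-consuming ectoenzyme, 31.7, 37.4, 32.3, 26.1 and 24.99 CPM at 0h and 23.5, 12.3, 10.7, 11.28 and 8.76 CPM at 12h (−1.27, SE 0.19, adjusted p = 0.000394). The other falls were IDO1 and IDO2, the entry enzymes of the pathway (−1.36, SE 0.39, and −2.10, SE 0.70), and NMNAT1 and NMNAT3, which complete NAD (−1.08, SE 0.24, and −1.10, SE 0.26). NAMPT, the rate-limiting enzyme of the salvage route, went the other way, with 109, 58.3, 71.7, 77.9 and 85.3 CPM at 0h and 432, 267, 355, 299 and 221 CPM at 12h (1.98, SE 0.16, adjusted p = 3.71e-05). NNMT, which methylates nicotinamide, was close to 0 before perfusion and had the highest log2 fold change of all the genes named (6.09, SE 0.96, adjusted p = 0.000599). It measured 0.136, 0.0311, 0, 0 and 0.0158 CPM at 0h and 0.312, 0.3002, 2.12, 1.26 and 6.76 CPM at 12h. As 2 of the libraries at 0h had no count, the size of this fold change is uncertain. The median of the list was −0.36, −1.01, −0.40, −0.65 and −0.29, and without the pig as a block 4 of its genes fell.

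Genes of branched-chain amino acid breakdown, fatty acid oxidation and peroxisomes were mostly lower, by small amounts. A lower mean was found for 54.3% of all genes tested. Of 26 genes of branched-chain amino acid and propionate breakdown 23 had a lower mean, 11 were lower at an adjusted p below 0.05 (42.3% against 20.8%) and 2 passed the fold change threshold as well (7.69%). BDH1, a ketone body dehydrogenase, measured 12.03, 12.1, 17.5, 16.1 and 14.3 CPM at 0h and 8.26, 1.74, 4.04, 4.71 and 5.53 CPM at 12h (−1.63, SE 0.32, adjusted p = 0.00198), and ALDH6A1, which oxidizes the valine product methylmalonate semialdehyde, 25.2, 26.7, 21.6, 33.7 and 24.1 CPM at 0h and 17.99, 7.62, 12.6, 8.05 and 16.7 CPM at 12h (−1.07, SE 0.26, adjusted p = 0.00617). IVD and ACADSB, acyl-CoA dehydrogenases of leucine and isoleucine breakdown, had log2 fold changes of −0.64 (SE 0.16) and −0.66 (SE 0.15). Of 32 genes of fatty acid oxidation 23 had a lower mean, 13 were lower at an adjusted p below 0.05 (40.6%) and 2 were called (6.25%). ACADL, the long-chain acyl-CoA dehydrogenase, measured 48.8, 24.9, 23.5, 29.7 and 26.1 CPM at 0h and 25.2, 8.37, 13.5, 12.6 and 16.6 CPM at 12h, with overlap (−1.02, SE 0.18, adjusted p = 0.00109), and ACAD10, a relative, fell as well (−1.11, SE 0.24). HADH, the hydroxyacyl-CoA dehydrogenase, and DECR2, a peroxisomal reductase, had log2 fold changes of −0.81 (adjusted p = 0.0023) and −0.99 (adjusted p = 0.000956). Of 23 peroxisome genes 19 had a lower mean and 8 were lower at an adjusted p below 0.05. FAR2, which makes fatty alcohols, was called (−1.31, SE 0.19, adjusted p = 0.000349), a share of 4.35%, below that of all genes. Pig 9 showed least of these changes: its median log2 ratio was −0.06 for branched-chain breakdown and 0.02 for fatty acid oxidation, against −0.25 to −0.72 and −0.15 to −0.47 in the other 4. The number past the fold change threshold in fatty acid oxidation ranged from 0 without pig 55 to 4 without pig 77, and that in branched-chain breakdown was 1 without pig 17 or pig 55. In the peroxisome list 2 of 23 genes fell without pig 9 or pig 77 and 3 in pigs 44, 55 and 77 alone, so its low share was not stable.

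Some enzymes that oxidize drugs and other foreign compounds fell, but the share in their list was close to that of all genes. Of 42 genes of xenobiotic metabolism 5 fell (11.9% against 8.66% of all genes) and 1 rose. At an adjusted p below 0.05 with no fold change threshold 9 of the 42 were lower, against 20.8% of all genes. FMO2, the flavin monooxygenase of lung, measured 306, 317, 286, 262 and 231 CPM at 0h and 74.1, 83.1, 157, 88.5 and 194 CPM at 12h (−1.31, SE 0.26, adjusted p = 0.00195). FMO5 measured 262, 260.1, 357, 317 and 459.6 CPM at 0h and 129, 80.1, 206, 132 and 221 CPM at 12h (−1.16, SE 0.16, adjusted p = 0.000288). FMO4 and AOX1, an aldehyde oxidase, fell with log2 fold changes of −1.10 (SE 0.21) and −1.24 (SE 0.19), as did SULT1B1, a sulfotransferase (−1.06, SE 0.32). CYP1B1, a cytochrome P450 induced by the aryl hydrocarbon receptor, rose (1.499, SE 0.31). Without pig 17 the falls of the list were 3. They were 3 of 41 genes with length and GC trends removed and 1 of 41 in pigs 44, 55 and 77 alone. Of 22 genes of retinoid metabolism 3 fell (13.6%) and 2 rose (9.09%). RARG, a retinoic acid receptor, fell (−1.32, SE 0.20, adjusted p = 0.000469), as did DHRS9, a dehydrogenase (−1.36, SE 0.31), while RDH10, which oxidizes retinol (1.67, SE 0.17, adjusted p = 5.93e-05), and RBP4, the retinol carrier (2.50, SE 0.37, adjusted p = 0.000414), rose.

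Lipid genes moved both ways. SLC27A1, a fatty acid transporter, measured 31.7, 37.4, 64.2, 56.5 and 56.04 CPM at 0h and 9.38, 11.4, 25, 24.5 and 39.0 CPM at 12h, with overlap (−1.30, SE 0.17, adjusted p = 0.000232), and SMPD3, a neutral sphingomyelinase, 3.65, 3.86, 4.21, 5.32 and 3.95 CPM at 0h and 0.842, 0.930, 1.47, 1.58 and 1.90 CPM at 12h (−1.68, SE 0.23, adjusted p = 0.000282). In the same lists DEGS1, which completes ceramide (1.20, SE 0.13), CHKA, the choline kinase (1.03, SE 0.14), LPCAT3, a phospholipid acyltransferase (1.08, SE 0.15), and ACSL4 and ELOVL1, which activate and elongate fatty acids (1.02, SE 0.23, and 1.02, SE 0.16), rose. Of 37 genes of phospholipid and sphingolipid synthesis 1 fell (2.7% against 8.66% of all genes) and 5 rose (13.5% against 6.99%). Of 35 genes of fatty acid and triglyceride synthesis, which include ACSL4 and ELOVL1, 1 fell and 3 rose (8.57%), and 0 rose without pig 17 or without pig 55 and 6 without pig 77. Of 25 genes of cholesterol synthesis and uptake edgeR called 0, with 9 at an unadjusted p below 0.05, and DESeq2 called 1.

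The plot of metabolic genes shows the single members behind these counts.

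**Figure D3:**
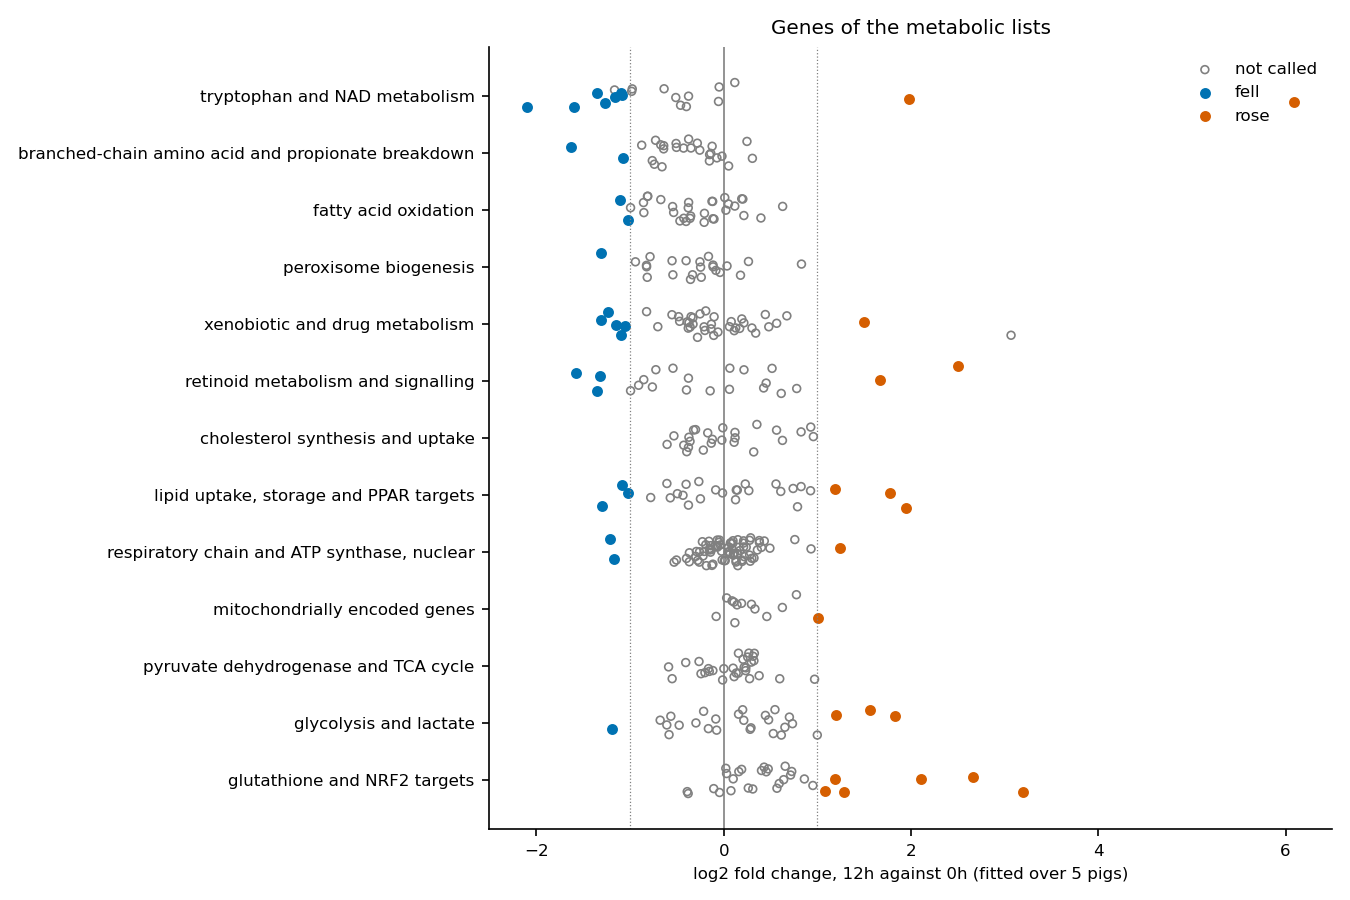
Fitted log2 fold change at 12h against 0h (5 pigs) of each gene in the 13 metabolic lists named on the vertical axis, which leave out the ATF4 and the arginine and polyamine lists. Filled points passed the adjusted p and the fold change threshold (blue fell, orange rose), and the dotted lines mark a 2-fold change. Of the lists drawn, tryptophan and NAD metabolism has the largest share of falls (7 of 20) and glutathione and NRF2 targets that of rises (6 of 30).

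In central energy metabolism few genes passed the fold change threshold. Of 28 genes of glycolysis and lactate 3 rose (10.7% against 6.99% of all genes) and 1 fell (3.57% against 8.66%). At an adjusted p below 0.05 with no fold change threshold 12 of the 28 were higher, against 17.6% of all genes. By the same measure 3 were lower, against 20.8% of all genes. HK2, the inducible hexokinase, measured 35.8, 34.2, 33.7, 22.1 and 37.2 CPM at 0h and 140.5, 143, 114, 106 and 79.1 CPM at 12h (1.83, SE 0.16, adjusted p = 3.77e-05), SLC16A1, the lactate transporter MCT1, 33.7, 25.4, 21.3, 26.4 and 31.7 CPM at 0h and 89.3, 116, 76.7, 83.0 and 51.0 CPM at 12h (1.56, SE 0.21, adjusted p = 0.000228), and PFKFB3 rose by 1.20 (SE 0.17), while ENO2 measured 8.35, 11.4, 15.5, 20.4 and 22.9 CPM at 0h and 3.398, 5.31, 8.58, 6.34 and 10.9 CPM at 12h, with overlap (−1.20, SE 0.16, adjusted p = 0.000216). Of 30 genes of pyruvate dehydrogenase and the TCA cycle edgeR called 0, with 15 at an unadjusted p below 0.05, DESeq2 called 1, and their median was 0.16. Of 77 nuclear genes of the respiratory chain NDUFAF1, an assembly factor of complex I, and NDUFS8, a subunit of it, fell (−1.18, SE 0.27, and −1.22, SE 0.44) and CYCS, cytochrome c, rose (1.25, SE 0.16). NDUFS8 was higher in pigs 9 and 17 fitted alone (0.345), and 1 gene fell in place of 2 when pig 17, 44, 55 or 77 was left out. Of 13 genes of the mitochondrial genome ND2 passed the threshold (1.005, SE 0.12, adjusted p = 0.000101), but not without pig 44 (0.93), without pig 55 (0.99), without the pig as a block, with upper quartile factors or in the fit of all 27 libraries. PPRC1, a coactivator of mitochondrial biogenesis, rose (2.05, SE 0.19, adjusted p = 4.48e-05), with TFAM, which packages mitochondrial DNA, just under the threshold (0.97, adjusted p = 0.000186).

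Circadian clock genes diverged, 4 of 22 falling (18.2%) and 4 rising (18.2% against 6.99%). The clock couples activators that bind E-box sequences to repressors of the PER and CRY families, and it drives output factors of the PAR bZIP family such as DBP and TEF, which NFIL3 opposes at shared sites. DBP (ENSSSCG00000003148, chromosome 6, 53986959 to 53993020) measured 22.4, 26.1, 22.7, 41.3 and 15.3 CPM at 0h and 2.40, 2.40, 3.98, 7.35 and 7.94 CPM at 12h (−2.53, SE 0.34, adjusted p = 0.000232), and TEF 67.6, 87.8, 112, 152 and 99.7 CPM at 0h and 30.9, 46.5, 47.5, 51.8 and 60.6 CPM at 12h (−1.10, SE 0.14, adjusted p = 0.000149). PER3 and TIMELESS fell with log2 fold changes of −1.14 (SE 0.22) and −1.04 (SE 0.24). CRY1 measured 11.14, 15.5, 12.3, 11.9 and 25.3 CPM at 0h and 38.5, 59.4, 37.2, 32.3 and 29.7 CPM at 12h (1.40, SE 0.22, adjusted p = 0.000528), NPAS2, an activator, 25.4, 20.5, 26.2, 33.3 and 23.7 CPM at 0h and 54.3, 55.9, 41.3, 61.6 and 44.9 CPM at 12h (1.004, SE 0.16, adjusted p = 0.000527), and NFIL3 and BHLHE40, repressors, rose by 2.18 (SE 0.47) and 1.27 (SE 0.42). The 4 rises were 7 without pig 9 and 2 without pig 17. DBP overlaps FUT2A on the opposite strand, whose log2 fold change was −0.48 (adjusted p = 0.125). The hour of day of the biopsies is not given in the sources used here.

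The promoters of PER3 and CRY1 are shown because each holds an E-box and the genes moved in opposite directions. The sequences are RefSeq's on Sscrofa11.1, 250 bases before to 50 bases after the annotated start, 5′ to 3′ on the gene's strand, and capitals mark the motif CACGTG, which reads alike on both strands.
PER3, chr6:68487384-68487683 (plus strand): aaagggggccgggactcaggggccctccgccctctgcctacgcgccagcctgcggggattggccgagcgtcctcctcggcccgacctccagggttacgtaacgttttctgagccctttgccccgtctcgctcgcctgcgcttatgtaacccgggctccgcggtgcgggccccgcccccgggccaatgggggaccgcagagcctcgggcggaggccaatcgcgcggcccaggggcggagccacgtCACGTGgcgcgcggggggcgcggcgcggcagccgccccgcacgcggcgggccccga
CRY1, chr5:13275299-13275598 (plus strand): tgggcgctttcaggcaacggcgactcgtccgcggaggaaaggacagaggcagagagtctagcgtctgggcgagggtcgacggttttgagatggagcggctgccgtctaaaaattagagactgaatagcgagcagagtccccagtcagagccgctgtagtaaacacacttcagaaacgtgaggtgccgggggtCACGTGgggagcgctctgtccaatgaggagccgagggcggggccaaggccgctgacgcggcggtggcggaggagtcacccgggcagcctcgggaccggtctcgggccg
The motif was present in 1219 of 14624 promoters of tested genes (8.34%), in 5 of 21 promoters of the clock list (23.8%), in 5.06% of promoters of genes that fell and in 8.83% of those that rose. The PER3 and CRY1 windows each hold a single copy. PER3 fell and CRY1 rose, and the window of DBP holds no CACGTG.

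ZNF genes encode zinc finger proteins, most of which bind DNA and many of which carry a repressive KRAB domain. Of 265 ZNF genes tested 69 fell (26.0%, and 41 genes without the pig as a block) and 7 rose, and 189 had a lower mean. With the trends of exon length and GC content removed 44 of 240 fell, and in pigs 9 and 17 alone 10 of 265. ZNF572 measured 17.5, 22.4, 13.04, 14.9 and 14.6 CPM at 0h and 9.29, 5.40, 3.61, 3.68 and 4.14 CPM at 12h (−1.73, SE 0.24, adjusted p = 0.000283), and ZNF175 9.81, 7.47, 10.5, 10.8 and 8.35 CPM at 0h and 3.55, 1.53, 1.09, 1.34 and 3.03 CPM at 12h (−2.25, SE 0.32, adjusted p = 0.000351), whereas ZNF326, which encodes a splicing-associated protein, rose (1.16, SE 0.12, adjusted p = 7.42e-05). The median log2 ratio of the 265 was −0.01, −0.27, −0.54, −0.74 and −0.55, so that the fall was present in pigs 44, 55 and 77 and nearly absent in pig 9. These genes share similar finger exons, and reads could be split between them. Of 2014 long noncoding RNAs 333 fell (16.5%) and 176 rose (8.74%), compared with 1229 (7.83%) and 962 (6.13%) of 15698 protein-coding genes. Their share of all counts went from 0.746% ± 0.0349 to 0.651% ± 0.0378 (SD, n = 5) and was lower in all 5 pigs (exact paired sign-flip test, p = 0.0625). Small nucleolar RNAs went the other way, with 54 of 167 higher (32.3%) and 3 lower (1.8%). The libraries were made with a kit that selects messenger RNA, and these small RNAs were a mean of 0.0158% of the counts at 0h and 0.0267% at 12h.

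Genes that fell and genes that rose differed in base composition and length. Among 14111 protein-coding genes with a RefSeq model, those with a promoter of low GC content fell more often: with the genes ranked and cut into 5 equal groups, 13.6% fell in the group with the lowest promoter GC (8.67 to 49.7%) and 3.76% in the group with the highest (71.3 to 94.0%). The median promoter GC was 55.3% for genes that fell, 63.2% for those that rose and 61.0% for all tested. The GC box GGGCGG, on either strand, was found in 40.8% of promoters of falling genes, 58.0% of those of rising genes and 56.4% of all 14624. Exon GC showed the same order, with 10.8% of genes falling in the lowest group and 4.22% in the highest. Rises were rarer in long genes: 8.86% rose in the group with the shortest span on the genome and 2.20% in the group with the longest. Genes are not independent, and no test was made of these shares. The median log2 ratio of genes in the lowest group of exon GC was 0.14 in pig 9 and −0.07 to −0.27 in the other 4, so this trend turned in pig 9. The length trend was not shared by pig 9 either: over the first 4 groups of span its medians went from −0.09 up to 0.08, and in the longest group the median was −0.05. Those of the other 4 pigs went from between 0.02 and 0.08 in the shortest group to between −0.13 and −0.23 in the longest. With promoter GC the medians were lowest in the lowest group in all 5 pigs. When the trends with exon length and exon GC were removed from each library, 1015 genes fell and 994 rose of 14626, against 1185 and 861 of the same genes before, and 989 fell in both. This check covers 78.7% of the genes tested and says nothing of the others.

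**Figure D4:**
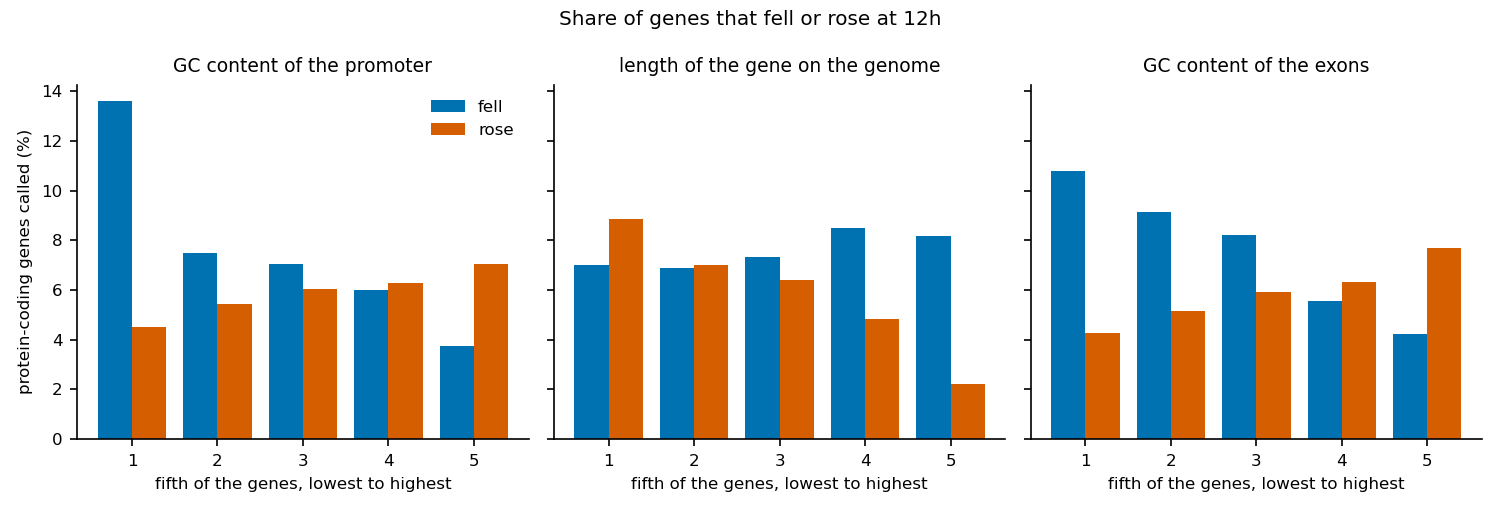
Share of protein-coding genes that fell (blue) or rose (orange) at 12h against 0h, in % of the genes of each of 5 equal groups, by GC content of the promoter, length of the gene on the genome and GC content of the exons. The share that fell goes from 13.6% to 3.76% from the lowest to the highest group of promoter GC.

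The genes that rose are described only as far as they set off the falls. The 12 with the highest log2 fold change included FOSL1, an AP-1 subunit, AREG, an EGF receptor ligand, and the metallothioneins MT1A and MT1X, which bind zinc. FOSL1 measured 6.34, 0.747, 1.12, 4.06 and 1.93 CPM at 0h and 21.9, 19.99, 144, 236 and 218 CPM at 12h (5.22, SE 0.75, adjusted p = 0.000382). Pigs 9 and 17 reached about 20 CPM and the other 3 at least 144 CPM. AREG measured 4.36, 0.436, 1.04, 0.714 and 1.24 CPM at 0h and 10.4, 10.2, 17.2, 30.0 and 22.6 CPM at 12h (3.94, SE 0.46, adjusted p = 0.000117). The metallothioneins are close copies in a cluster with MT3 and their counts are uncertain. TNFSF18, MYL5, GRIN2C, CRHR1, GARIN5B, SOWAHA and NNMT were also among the 12, MYL5 overlapping SLC49A3 on the opposite strand. Lists with 0 falls of which at least 20% rose were glucocorticoid-induced genes (13 of 23, 56.5%), ATF4 and amino acid stress genes (10 of 21, 47.6%), NF-kB and cytokine genes (12 of 31, 38.7%), flow-responsive endothelial genes (given above), ribosome biogenesis (16 of 50, 32.0%) and NRF2 targets (6 of 30). KLF9 and GADD45A of the first rose by 2.01 (SE 0.17) and 3.06 (SE 0.16), TRIB3, a pseudokinase induced by ATF4, by 2.93 (SE 0.25), the rRNA helicase DDX21 by 1.77 (SE 0.16), and TXNRD1, thioredoxin reductase, by 2.66 (SE 0.19). Of 85 cytosolic ribosomal protein genes 0 were called, although 47 were higher and 2 lower at an adjusted p below 0.05, with a median of 0.35, and DESeq2 also called 0. The NF-kB median was −0.29 in pig 9 and between 0.48 and 1.71 in the other 4, and 19 of its genes rose without pig 9. The glucocorticoid list had 1 fall without pig 9 or without pig 17 and 2 in pigs 44, 55 and 77 alone. In pigs 9 and 17 alone the glucocorticoid and the flow-responsive lists had 1 fall each, so their 0 falls were not stable.

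The 6h biopsies of the same lungs give an earlier time. At 6h against 0h 1034 genes had fallen (5.56%) and 1023 had risen (5.50%). Between 12h and 6h edgeR called 0 genes at an adjusted p below 0.05 with no fold change threshold, the smallest adjusted p being 0.99955, and 882 genes (4.74%) had an unadjusted p below 0.05. DESeq2 called 2. CX3CR1 stood at −2.85 at 6h and −3.26 at 12h, DBP at −2.21 and −2.53, FMO2 at −0.98 and −1.31 and AFMID at −1.04 and −1.6 (log2 fold changes against 0h). The ciliated-cell and airway lists had medians of −0.18 and −0.21 at 6h and −0.65 and −0.54 at 12h, and none of their genes passed the test between 12h and 6h. Both times share the 0h libraries, and the values are set side by side only.

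In PD the same contrast was set beside GS with all 27 libraries in a joint fit and the pig as a block. The PD libraries stood apart from those of GS. They held 14650700 to 21820935 counts, fewer than any GS library. At 0h the 100 most abundant genes took 29.96 to 43.86% of the counts in PD and 16.54 to 22.86% in GS, and red cell genes 0.00622 to 0.0210% and 0.000819 to 0.00203%. Long noncoding RNAs took 1.10 to 3.75% of the counts at 0h in PD and at most 0.786% in GS. The 12h library of PD pig 2 had 1.65% of its counts from the mitochondrial genome and 18979 genes with a count, against 5.95 to 8.84% and 20380 to 21090 genes in the other 3 PD libraries at 12h, so values without this pig are given too. The part of these differences in the results was not tested. For the difference of the 12h change, PD minus GS, 0 of 17884 genes passed an adjusted p below 0.05 in edgeR, the smallest being 0.306, and 1069 (5.98%) had an unadjusted p below 0.05. This test misses many changes that the test of 12h against 0h finds, so a lack of calls does not show that the groups changed alike. DESeq2 called 15, and edgeR called 153 once PD pig 2 was left out, all at an adjusted p of 0.0496, just under the threshold. Of these 153 genes 5 had fallen in GS and 4 had risen, smaller shares than the 8.66% and 6.99% of all genes tested. RDH10, with a difference of 2.14, was among those that had risen. Some genes that fell far in GS did not in PD. SCGB1A1 had a log2 fold change of 0.61 in PD, and the difference from GS was 2.18 (SE 0.54, adjusted p = 0.578). BPIFA1 was at −0.15 and differed by 2.87 (adjusted p = 0.732), GJA5 was at 0.30 and differed by 1.64 (SE 0.53, adjusted p = 0.677), and PROX1 was at 0.47 and differed by 1.62 (SE 0.65, adjusted p = 0.774). None of these passed, also without PD pig 2, where the differences were 2.03 for SCGB1A1 (adjusted p = 0.0622), 3.31 for BPIFA1 (adjusted p = 0.0855), 1.73 for GJA5 (adjusted p = 0.0849) and 2.27 for PROX1 (adjusted p = 0.0553). CX3CR1 (−3.35 in PD), B3GALT2 (−4.25), DBP (−3.55), AFMID (−1.67), HPGD (−2.08) and FMO2 (−1.10) were lower at 12h in PD as well, with and without that pig. List medians in PD were −0.83 for T cells, −0.63 for NK cells, −0.30 for ciliated cells, −0.11 for airway secretory and basal cells, −0.79 for tryptophan and NAD metabolism, −0.72 for fatty acid oxidation and −0.18 for ZNF genes. Without PD pig 2 they were −0.92, −1.10, −0.43, −0.51, −0.90, −0.70 and −0.07 in the same order. The tryptophan and NAD genes that fell in GS were not alike in PD without that pig. IDO1 was higher at 12h (2.16) and differed from GS by 3.46 (SE 0.90, edgeR adjusted p = 0.0553), which did not pass. KMO (−0.20) and IDO2 (−0.19) changed little, while AFMID (−1.79), CD38 (−0.88), NMNAT1 (−0.92) and NMNAT3 (−1.62) were lower.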

How the data were processed

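Lung biopsies of 5 GS pigs and 4 PD pigs at 0h, 6h and 12h of EVLP were measured by bulk RNA-seq after messenger RNA selection. The authors deposited a single table of raw counts per gene. Per the submitters' processing notes, the tools were bcl2fastq 2.2.18.12, cutadapt 1.15, TopHat2 2.0.14, featureCounts (Subread 1.6.0) and DESeq2 1.18.1 with Sscrofa 11.1. The strand setting and the handling of reads that match several genes are not given in the sources used here, and biopsies were frozen or kept in RNAlater and extracted by 1 of 2 methods, which the labels do not give per library. A per-library effect of extraction was therefore not tested.

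All 15 GS libraries entered edgeR 4.0.16 (R 4.3.3) with its filter on low counts, TMM factors, the pig as a block and a robust quasi-likelihood fit. P-values were adjusted by Benjamini-Hochberg over all genes tested, and called means an adjusted p below 0.05 and a fold change of at least 2. Group levels are TMM-scaled CPM, and log2 ratios of single pigs were computed on CPM with 0.1 added. Pig numbers pair samples of the same animal: over genes, the deviations of a pig at 0h and at 12h from the group means correlated at 0.34 to 0.649, against a mean of −0.153 between different pigs. Taking deviations from group means by itself pulls the correlations between different pigs below 0, so −0.153 is not an independent baseline. Shares of library counts were compared by exact paired sign-flip tests. PD minus GS was an interaction term in a fit of all 27 libraries.

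The gene lists and their members were chosen with earlier results of these data known. Genes are named by a rule: the 20 lowest and 12 highest called genes with a symbol, changed alike in all 5 pigs, at a mean of at least 1 CPM, and in each list up to 4 members with the smallest p, called ones first. A few genes that this rule names are not reported here. ACTA2, AGER, CD3E, CD79A, CDH5, FOXJ1, KLF2, KLF4, MARCO, NKG7, NOS3, SFTPB and SFTPC were named for their role. ADRA1B, ADRA1D, ADRA2B, APLNR, BHLHE40, CYP1B1, EDN1, EPHA2, IDO1, IDO2, LPL, NFIL3, NMNAT1, NMNAT3, NOS1, PAX5, PER3, PTGER3, PTGFR, SULT1B1, TBX21 and TIMELESS were named after their values were seen, and CDC73, FUT2A, HSP70.2, P2RY12 and SLC49A3 because they overlap a named gene. Gene length, exon GC and promoters came from RefSeq. The statistical steps were tested on simulated data, where the test of PD minus GS found far fewer of the changes put in than that of 12h against 0h. Alternatives were other scaling factors, filters, thresholds and libraries, a fit without the block, DESeq2 1.42.0, and, chosen after seeing the data, subsets of pigs by depth and the removal of length and GC trends. No 2 libraries had counts alike within sampling noise. Counting error alone is small at this depth, where 3 counts are 0.0444 to 0.112 CPM.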

Additional observations from a re-analysis of the deposited data

Results flagged for a closer look

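In each group of 5 pigs the highest or lowest log2 ratio, 12h over 0h, was compared with the rest, and its gap to the nearest pig was set against the whole range by Dixon's critical value. It was past that value for 13 of 259 genes and lists (5.02%), and chance marks about 1 in 20. The pig that stood apart was pig 9 in 5 cases, pig 77 in 4 and pig 55 in 4.

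In pig 9 the log2 ratio was −3.80 for APLNR, the apelin receptor, against −1.58 to −1.10 in the other pigs. For EPHB6 it was −0.185 against −1.78 to −1.34, and for ZNF572 −0.907 against −2.03 to −1.79. Among rising genes pig 9 had the smallest change of GARIN5B, 1.06 against 3.67 to 4.54, and of TRIB3, 1.54 against 2.99 to 3.58.

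In pig 77 APLN was higher at 12h, with a log2 ratio of 0.831 against −2.56 to −1.74. CDH5 was at 0.703 against −0.072 to 0.097, and PTGER3, a prostaglandin E receptor, at −0.109 against −1.43 to −1.12. The median of the genes of the mitochondrial genome was 0.002 in this pig and 0.317 to 0.365 in the others. In pig 55 HSPA1L fell furthest, at −3.99 against −2.41 to −2.14, TEK was at −0.780 against −0.603 to −0.563, NOS3 was at 1.81 against −0.039 to 0.403, and the median of the red cell genes was −1.79 against −0.514 to −0.042. The causes of these differences were not tested.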

How the results depend on the processing

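The called genes at 12h against 0h numbered 2911 (1611 fell, 1300 rose). Without the pig as a block they were 1896 (879 fell, 1017 rose), a change of the falls by over 1.5 times. With a mean of at least 1 CPM 1037 fell, with glmTreat against a fold change of 1.5 1833 were called and 890 fell, with no fold change threshold 7136 were called (3868 fell, 3268 rose), with all 27 libraries in the fit 1022 fell, and with exon length and GC trends removed 1015 fell. In pigs 9 and 17 alone 1324 were called (619 fell, 705 rose). Falls were 55.3% of the calls, 46.4% without the block, 49.1% with DESeq2 size factors and 60.2% with upper quartile factors, which moved the median of all genes from −0.076 to −0.018 and −0.128. Falls without the block were 2 NK-cell, 3 B-cell, 2 ciliated-cell, 3 capillary and 5 potassium channel genes, and rises were 2 clock and 3 cadherin genes. Leaving out a pig gave 2132 to 3533 calls. At 6h against 0h 1034 fell and 1023 rose, and the calls were 1123 without the block, 1219 with all 27 libraries and 1318 to 2148 without a pig. At 12h against 6h DESeq2 called 2. For the difference between PD and GS DESeq2 called 15, and leaving out a pig gave 0 to 153 calls, the latter without PD pig 2.

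Of 198 genes named 169 were called, 95 of them under every alternative listed beforehand that tested them, and 10 changed sign under some alternative. In pigs 44, 55 and 77 alone the log2 fold change was 0.019 for ACTA2, 0.119 for MARCO and 0.135 for NKG7. In pigs 9 and 17 alone it was −0.063 for AGER, −0.037 for EPHA2, 0.091 for KLF2, −0.853 for KLF4, 0.345 for NDUFS8 and −0.147 for SFTPC. It was 0.041 for CDC73 with the length and GC trends removed, and 0.015 for MARCO with the 0h and 12h libraries only. Without a pig KLF2 went from −0.234 to 0.024, MARCO went from −0.245 to 0.016 (without pig 44) and NKG7 from −0.159 to 0.007 (without pig 9). Of these only EPHA2 and NDUFS8 were called. The causes were not tested. The trend removal covered 78.7% of the genes tested and is void for the whole set.

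Pigs 9 and 17 had the shallower libraries, and depth and other differences between these pigs cannot be told apart. The 5 pigs give exact tests no p below 0.0625. The 6h and 12h contrasts share the 0h libraries. Reads of genes that overlap or are close copies, such as the P2RY12 and P2RY13 pair, HSP70 genes and metallothioneins, may have been counted for either. Low genes such as NNMT rest on few counts at 0h.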

Other observations

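Of 38 cadherins and protocadherins, adhesion proteins of cell contacts, 7 fell (18.4%) and 5 rose (13.2%), and 3 rose without pig 44, 55 or 77. PCDH18, CDH6 and PCDH12 had log2 fold changes of −1.18 (SE 0.22), −1.27 (SE 0.24) and −1.44 (SE 0.34), and CDH1, the epithelial E-cadherin, rose (1.24, SE 0.20, adjusted p = 0.000575). Of 18 ephrins and Eph receptors, which signal between neighbouring cells, EPHA7, EPHB6 and EPHA3 fell (−1.59, SE 0.30, −1.31, SE 0.27, and −1.02, SE 0.29), while EFNB1 and EPHA2 rose (1.25, SE 0.16, and 1.73, SE 0.55). The cell-cycle genes AURKB, TPX2 and CENPE, of mitosis, fell (−1.08, SE 0.17, −1.15, SE 0.19, and −1.26, SE 0.25), 3 of 34 (8.82%), a share close to that of all genes (8.66%). The median log2 ratio of the 34 was 0.53 in pig 55 and between −0.25 and −0.53 in the other 4.

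In prostaglandin and eicosanoid metabolism 3 of 20 genes fell (15%). HPGDS, the prostaglandin D synthase of mast and T helper cells, measured 0.273, 1.62, 1.26, 0.973 and 0.523 CPM at 0h and 0.0935, 0.120, 0.182, 0.252 and 0.0171 CPM at 12h (−2.92, SE 0.49, adjusted p = 0.000834). PLA2G4A, which frees arachidonic acid, fell with HPGD (−1.09, SE 0.17), and the transporter SLCO2A1, which takes prostaglandins up, rose (1.31, SE 0.22). In arginine and polyamine metabolism 6 of 26 genes rose (23.1% against 6.99% of all genes) and 1 fell (3.85% against 8.66%). SRM, the spermidine synthase (1.75, SE 0.25), and ARG1, an arginase (1.99, SE 0.35), were among the rises. NOS1, the neuronal nitric oxide synthase, fell (−1.97, SE 0.71). RPE, of the pentose phosphate pathway, fell as the single member of its list (−1.31, SE 0.28).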
